A study of Solanum lycopersicum with 12 samples.

Results

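The salt response of tomato roots after 2 hr of treatment was compared between LA2711, described by the submitters as a salt-tolerant cultivar, and ZS-5, described as salt-sensitive. The comparison uses 4 of the 12 arrays of the series, chosen by their labels alone: 2 arrays of LA2711 and 2 arrays of ZS-5, all with root RNA of seedlings treated with salt for 2 hr set against root RNA of control plants of the same genotype. Every group used here is thus a pair of RNAs from whole roots of one genotype, salt-treated and control, and no source used here states the salt dose, the number of plants pooled or the age of the seedlings. The other 8 arrays hold the same genotypes at 30 min and 6 hr. On each array the treated and the control RNA were labelled with different dyes, Cy3 and Cy5, and the second array of a condition has the dyes swapped. The 2 arrays of a condition carry the same 2 RNAs, so each genotype has 1 replicate at 2 hr, and the spread between its arrays is technical.

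Salt reaches a root first as an osmotic stress, when water uptake is impaired, and then as an ionic stress, when sodium enters and potassium is displaced. Roots answer through abscisic acid, ethylene and jasmonate signalling, through transcription factors such as the NAC and ethylene response factor families, and through enzymes that handle hydrogen peroxide, build compatible solutes or loosen the cell wall. Tolerant and sensitive tomatoes are known to differ in how fast and how far such genes respond. The study's design sets both kinds of cultivar side by side, which poses the question of which responses differ between them at 2 hr.

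Values are log2 ratios of treated and control RNA, averaged over the 3 neighbouring spots of a clone and centred on the median of each array. The direction is common to all arrays. The sources do not settle whether treated or control RNA is on top of the ratio, so positive and negative are named as sides and no side is called induction. If the scanner's ratio was Cy5 over Cy3, the deposited values are control over treated, and if it was Cy3 over Cy5 they are treated over control. The genotype difference is the LA2711 value minus the ZS-5 value, taken between arrays with the treated RNA in the same dye. A clone was counted as differing when this difference was at least 2-fold, which is 1 on the log2 scale, with the same sign on both dye-matched pairs. Of 3456 clones, 3191 were measured on all 4 arrays of 2 hr. They include 77 of the 79 clones that carry a gene name, which stand for 36 of 38 named genes. The clones of WRKYIId-1 and LOC778219 were not measured on all 4 arrays. No level of any transcript can be read from ratios, so the labelled tissue could not be checked against root markers.

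The 4 arrays held 9547 to 9820 measured spots each, and the median SD among the spots of a clone was 0.0968 to 0.122 on the log2 scale. The clones fall into 32 equal runs in spot order, called blocks here. A set of spots at 1 fixed place in each block followed the dye and not the RNA. Over all 12 arrays, 475 of its 475 spot values were positive where the treated RNA was in Cy5, and 561 of 561 were negative where it was in Cy3. These sets also held 363 of the 366 spot values at the ratio limits, which were left out. In 21 of these sets enough spots remained to be counted among the 3191 clones, and 0 of them were past 2-fold between genotypes. Across the other 3170 clones, which are not independent replicates, the 2 arrays of LA2711 correlated with r = 0.979 and those of ZS-5 with r = 0.983. With the 21 sets included these values were 0.653 and 0.724.

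At 2 hr most of the response was shared, and with median centring fewer clones were past 2-fold in LA2711 than in ZS-5. Past 2-fold on both arrays were 1320 clones in LA2711 (41.4%) and 1526 in ZS-5 (47.8%). On the positive side were 443 in LA2711 and 604 in ZS-5, and on the negative side 877 in LA2711 and 922 in ZS-5. Both genotypes had 1102 of these clones on the same side, which is 83.5% of the LA2711 clones and 72.2% of the ZS-5 clones. Only 2 clones were past 2-fold on opposite sides, 216 were past it in LA2711 alone and 422 in ZS-5 alone. Uncentred, 1321 clones were past 2-fold in LA2711 and 1457 in ZS-5. On the negative side LA2711 then had more, 1066 against 888, and on the positive side fewer, 255 against 569. With the arrays scaled to one spread the counts were 1412 and 1417, and after quantile normalisation 1404 and 1432.

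Among the 1102 shared clones, 885 (80.3%) lay nearer to 0 in LA2711 than in ZS-5. The share was 86.9% of the 718 negative clones and 68.0% of the 384 positive ones. Without centring the share was 64.8% of 1026 clones, with 57.2% on the negative and 89.3% on the positive side. The median distance from the centre was 0.92 for LA2711 and 1.08 for ZS-5, and when all 4 arrays were scaled to one spread the share was 50.3%. Equal spread removes any difference of overall scale by construction. With 1 pair of RNAs per genotype, RNA and array cannot be told apart as the source of that difference. The pair means of both genotypes correlated across clones with r = 0.945.

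**Figure D1:**
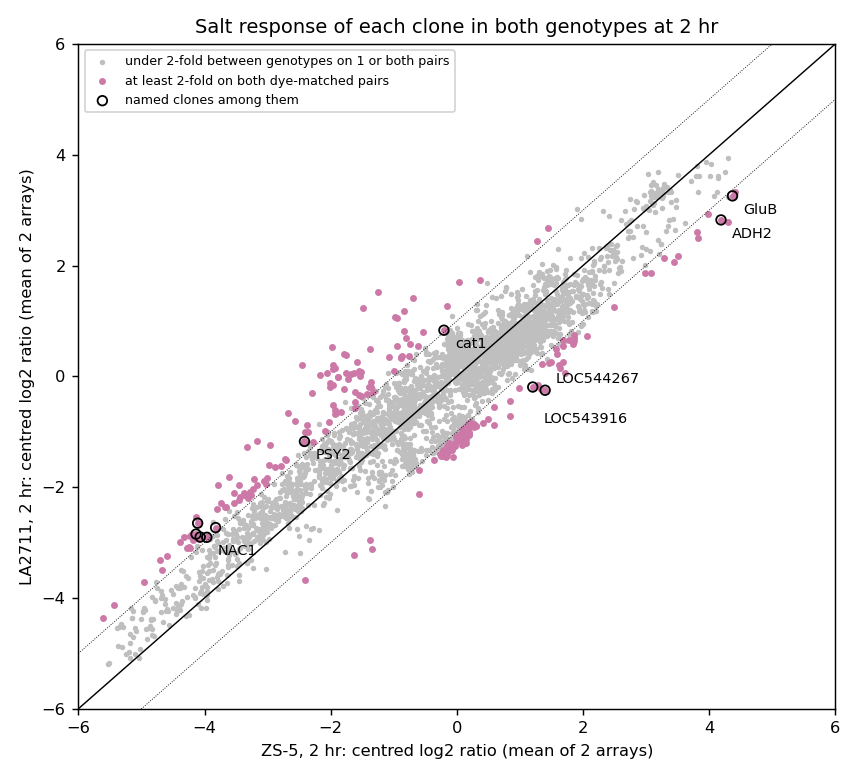
Centred log2 ratio of each clone at 2 hr, LA2711 on the vertical and ZS-5 on the horizontal axis (means of 2 arrays, dye-following sets left out). The solid line marks equal values and the dotted lines a 2-fold difference. Negative clones lie mostly above the solid line, and a compact cloud near 0 in ZS-5 lies below the lower dotted line.

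Between the genotypes, 226 of 3191 clones (7.08%) differed at least 2-fold on both dye-matched pairs, 125 with a positive difference (3.92%) and 101 with a negative one (3.17%). Of the 125 positive differences, 84 were clones on the negative side in both genotypes and nearer to 0 in LA2711, 4 were on the positive side in both and further from 0 in LA2711, and 37 had pair means on opposite sides. Of the 101 negative differences, 30 were on the positive side in both and nearer to 0 in LA2711, 31 were on the negative side in both and further from 0 in LA2711, and 40 had means on opposite sides. Clones on the same side and nearer to 0 in LA2711 thus made up 114 of the 226 (50.4%), against 1951 of all 3191 clones (61.1%). Uncentred they made up 30.0% of the 360 clones past 2-fold, and 125 were on the same side and further from 0 in LA2711.

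The dye-matched pairs agreed closely. Across the 3170 clones the difference had an SD of 0.62 on the Cy5 pair and 0.61 on the Cy3 pair, the differences correlated with r = 0.91, and the median gap between them was 0.16. The largest differences were 2.78 and -1.77.

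**Figure D2:**
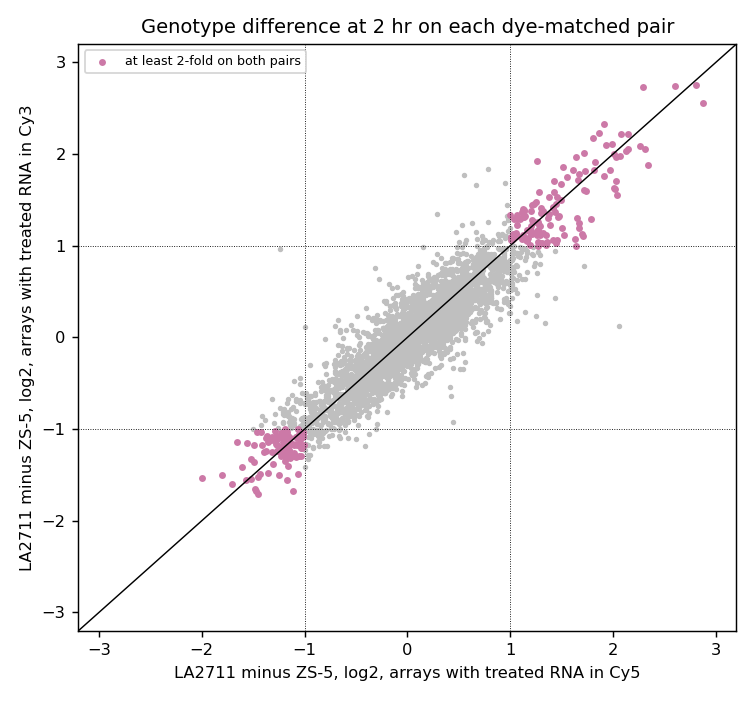
LA2711 minus ZS-5 difference of each clone at 2 hr (centred log2), arrays with treated RNA in Cy5 on the horizontal and in Cy3 on the vertical axis. Dotted lines mark 2-fold and the solid line equal values. The 226 coloured clones lie in the outer corners, and none is past 2-fold with opposite signs.

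The balance of the 2 directions depended on centring. Before centring, the array medians averaged -0.35 in LA2711 and 0.01 in ZS-5, so each uncentred difference is lower by 0.36. Uncentred, 360 clones (11.3%) were past 2-fold, 45 with a positive (1.41%) and 315 with a negative difference (9.87%), so that 12.5% were positive, against 55.3% with centring. Quantile normalisation gave 73 positive and 106 negative clones (40.8% positive), or 72 and 105 without the dye-following sets, and equal spread gave 71 and 123 (36.6% positive). Directions below are relative to the median clone, and uncentred values are printed where a call turns on it.

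**Figure D3:**
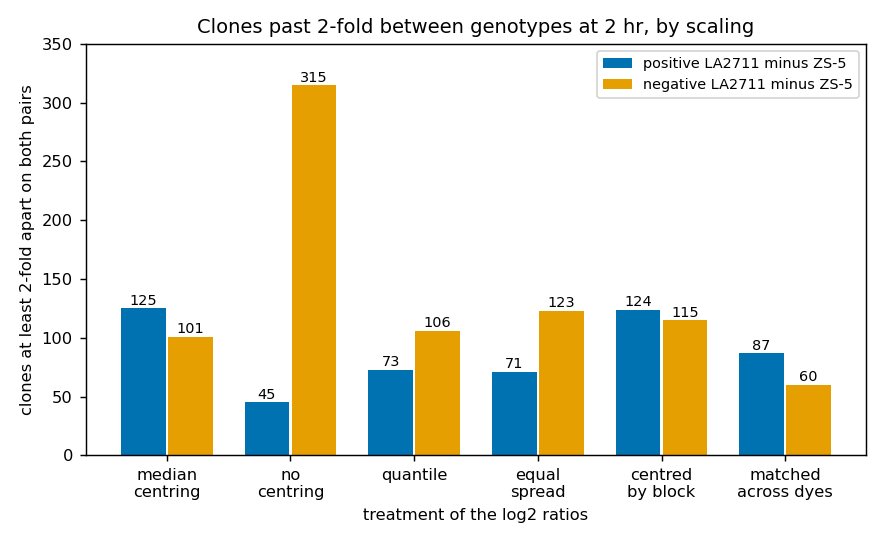
Clones at least 2-fold apart between genotypes at 2 hr on both pairs, by treatment of the log2 ratios, split into positive and negative LA2711 minus ZS-5. The split is 125 and 101 with median centring and 45 and 315 without it.

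With 1 replicate per genotype the only spread available for a test is how far the genotype differences of 30 min and 6 hr lie apart. A limma fit over the 6 conditions with a separate difference at 2 hr called 0 of 3018 clones (0%) at an adjusted p under 0.05, with 404 (13.4%) at an unadjusted p under 0.05 and a smallest adjusted p of 0.344. Its count for the 2 hr difference minus the difference of the other times was also 0, with 430 (14.2%) at an unadjusted p under 0.05 and a smallest adjusted p of 0.222. In simulated data this fit recovered 6.93% of differences of log2 size 1 and 86.9% of those of size 2, with 9 false calls. The simulated spread of each clone was drawn toward that of the median clone, so recovery in the real data can be lower. In the real data the differences of 2.78 and 2.72 of spots 5557 to 5559 and 4795 to 4797 had limma SEs of 1.05 and 0.95. Neither was called with median centring. The differences below are therefore measurements of these arrays that this fit did not call. Without centring it called 3 unnamed clones, among them spots 5557 to 5559 and 4795 to 4797 (limma adjusted p = 0.0227 for each), and without the second LA2711 array of 30 min it called 10.

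NAC1, which encodes a NAC-domain transcription factor of stress responses, had the largest positive difference among named clones with median centring. After quantile normalisation and with equal spread cat1 and PSY2 were above it. LOC543942 was also above it after quantile normalisation (1.10), but not when the dye-following sets were left out (0.28). On 7 of the 9 NAC1 clones both genotypes lay far on the negative side. LA2711 arrays lay between -3.34 and -2.53 and ZS-5 arrays between -4.20 and -3.67. LA2711 lay nearer to 0 on each of these clones. Of all 718 clones past 2-fold on the negative side in both genotypes, 624 (86.9%) did so, and 57.2% of 782 uncentred. The arrays of the genotypes do not overlap on them, but the share of all clones without such overlap was not counted. The spread between the arrays of a genotype is technical.

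The NAC1 clone of spots 3643 to 3645 had values of -2.53 and -2.77 on the LA2711 arrays and of -4.20 and -4.01 on the ZS-5 arrays. Its difference was 1.46 ± 0.33 (limma SE, adjusted p = 0.344). The clone of spots 3658 to 3660 lay at -2.97 and -2.73 in LA2711, against -4.17 and -4.10 in ZS-5, a difference of 1.29 ± 0.34. Both LA2711 arrays of each clone thus showed a smaller departure from 0 than either ZS-5 array.

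The remaining NAC1 clones past 2-fold on both pairs were spots 4912 to 4914 with a difference of 1.17, spots 469 to 471 with 1.09 and spots 4315 to 4317 with 1.06. The clones of spots 1408 to 1410 and 3064 to 3066 differed by 0.95 and 0.71 and did not. The other NAC1 clones did not lie on the negative side. Spots 4192 to 4194 lay at 1.02 and 1.55 in LA2711 and at 0.81 and 1.17 in ZS-5, and spots 3769 to 3771 differed by -0.15. Clones annotated to 1 gene are not taken as separate evidence, and the NAC1 clones did not all lie on one side. Whether all of them report the same transcript was not tested. Of 11 named clones past 2-fold (14.3% of 77, against 7.08% of all clones), 5 are NAC1. Uncentred, 0 of these 5 were past 2-fold, with differences of the 7 negative-side clones between 0.35 and 1.10. After quantile normalisation and with equal spread 0 of the 5 were past 2-fold either, and the clone of spots 3643 to 3645 differed by 0.963 and 0.957.

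Among plastid genes 5 of 5 measured clones had a positive difference, against 1719 of all 3191 clones (53.9%), and 1 of 5 was past 2-fold, against 7.08% of all clones. PSY2, a phytoene synthase that opens carotenoid synthesis and so feeds abscisic acid synthesis, lay at -1.23 and -1.12 on the LA2711 arrays, against -2.68 and -2.15 on the ZS-5 arrays. The difference was 1.24 ± 0.31 (limma SE, adjusted p = 0.344), or 0.88 uncentred and then under 2-fold. PSBR, a subunit of photosystem II, had clones that differed by 0.90, 0.85 and 0.37. The first of these (spots 2320 to 2322) lay at -0.12 and -0.88 in LA2711 and at -1.15 and -1.65 in ZS-5, so that the nearest arrays of the genotypes were closer to each other than the LA2711 arrays were. For ribA, of riboflavin synthesis, the difference was 0.56.

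Of the peroxide-handling genes 1 of 2 was past 2-fold, against 7.08% of all clones. The catalase gene cat1, whose product breaks down hydrogen peroxide, lay at 0.62 and 1.05 in LA2711 and at -0.40 and -0.01 in ZS-5. Its genotypes were on opposite sides of the centre on every array, as in 159 of all 3191 clones (4.98%), with a difference of 1.04 ± 0.51 (limma SE, adjusted p = 0.464), or 0.68 and under 2-fold uncentred. The peroxidase gene TPX2 lay at 1.56 and 1.49 in LA2711, against 1.45 and 1.34 in ZS-5, a difference of 0.14.

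On the negative side of the comparison stood ADH2, an alcohol dehydrogenase of fermentation, with 2.90 and 2.75 in LA2711 and 4.07 and 4.30 in ZS-5. Its difference was -1.36 ± 1.25 (limma SE, adjusted p = 0.631), and it was -1.72 uncentred. With equal spread it was -0.84, and after quantile normalisation without the dye-following sets -0.999, under 2-fold in both. Quantile normalisation with these sets gave -2.16, with -0.82 on the Cy5 pair and -3.50 on the Cy3 pair, so not past 2-fold on both. Both genotypes were far on the positive side and LA2711 was nearer to 0. The other genes of carbon metabolism differed less. BMY3, a beta-amylase that releases maltose from starch, lay at -1.42 and -1.35 in LA2711, against -2.33 and -2.15 in ZS-5, a difference of 0.86 that was under 2-fold. PPCK1, the kinase that activates phosphoenolpyruvate carboxylase, differed by -0.15.

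Of the 6 clones of defence genes, 1 was past 2-fold, against 7.08% of all clones. GluB encodes a beta-1,3-glucanase that cuts fungal cell walls and callose. Its clone of spots 9247 to 9249 lay at 3.35 and 3.17 in LA2711 and at 4.37 and 4.37 in ZS-5, a difference of -1.11 ± 0.35 (limma SE, adjusted p = 0.344) and of -1.47 uncentred. With equal spread it was -0.55, and after quantile normalisation without the dye-following sets -0.79, under 2-fold in both. Quantile normalisation with these sets gave -1.90, with -0.51 on the Cy5 pair and -3.29 on the Cy3 pair, so not past 2-fold on both. The other GluB clone (spots 4516 to 4518) differed by -0.42, so the clones of this gene agree in sign and not in size. LOC543878, whose synonym in the RefSeq table is PR5, had differences of -0.70, -0.17 and 0.17 on its 3 clones. NP24-I, an osmotin-like protein of the thaumatin family, differed by 0.36.

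The most negative difference of a named clone was that of LOC544267 (spots 5749 to 5751), with -0.24 and -0.26 in LA2711 and 1.46 and 1.34 in ZS-5. It was -1.65 ± 0.58 (limma SE, adjusted p = 0.36), and -2.01 uncentred. LA2711 lay just below the centre where ZS-5 was past 2-fold on the positive side. The other clones of this gene, spots 1534 to 1536 and 616 to 618, lay between 2.53 and 3.04 on all 4 arrays, with differences of -0.12 and 0.05. The tables used here give this gene no function.

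LOC543916 is listed with the synonym XTH9, a name of the xyloglucan endotransglucosylase/hydrolases that cut and rejoin wall xyloglucan in growing cells. It lay at -0.10 and -0.28 in LA2711, against 1.01 and 1.40 in ZS-5. Again LA2711 was near the centre and ZS-5 was past 2-fold on both arrays. The difference was -1.40 ± 0.59 (limma SE, adjusted p = 0.411), and -1.76 uncentred. Uncentred differences are all lower by the same amount, so that a negative call cannot be lost there. LOC544267, LOC543916 and cat1 were the named clones past 2-fold both after quantile normalisation and with equal spread.

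**Figure D4:**
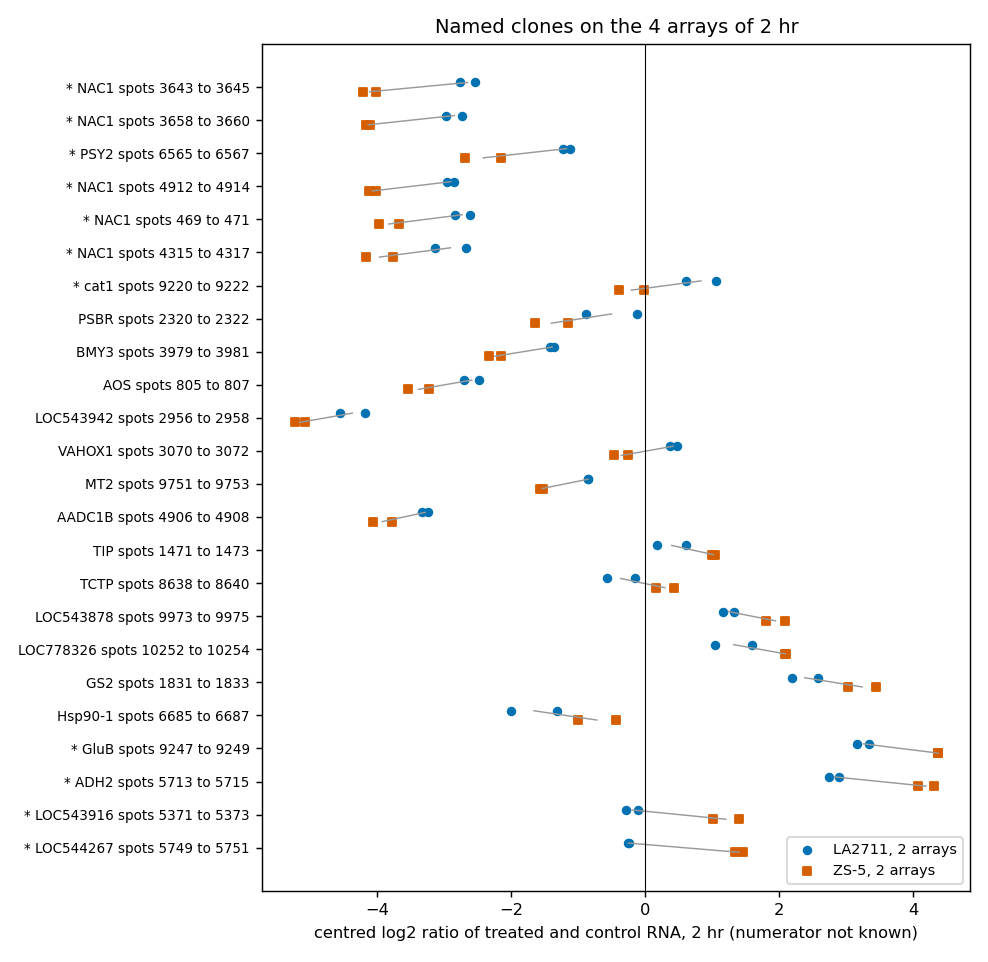
Centred log2 ratios on the 4 arrays of 2 hr for the 24 named clones described (circles LA2711, squares ZS-5, grey lines join pair means). Asterisks mark the 11 clones past 2-fold on both dye-matched pairs. From top to bottom the LA2711 minus ZS-5 difference runs from 1.46 to -1.65.

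The glutamine synthetase genes, which assimilate ammonium, had negative differences under 2-fold on all 3 clones. Of all 3191 clones, 1472 had a negative difference. The GS2 clone of spots 1831 to 1833 lay at 2.58 and 2.19 in LA2711, against 3.44 and 3.03 in ZS-5, a difference of -0.86 (-1.22 uncentred). The second GS2 clone differed by -0.80, so both clones of the gene gave nearly the same value. For gts1 the difference was -0.19.

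Of the heat shock genes, Hsp90-1, a cytosolic chaperone, was further from 0 in LA2711. It lay at -2.01 and -1.31 there, against -1.003 and -0.44 in ZS-5, and the difference of -0.94 was -1.30 uncentred. Its ranges nearly touch, because both genotypes differed between their dye orientations. MTSHP, a mitochondrial small heat shock protein, differed by 0.53.

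Genes of hormone synthesis and response stayed within 2-fold. AOS makes the allene oxide from which jasmonate is built, and its 7 clones differed by -0.55 to 0.79 with a median of 0.04, or of -0.32 uncentred. The AOS clone of spots 805 to 807 lay at -2.48 and -2.70 in LA2711, against -3.22 and -3.54 in ZS-5. LA2711 lay nearer to 0 on this clone. Pair means of the AOS clones ran from -4.57 to 3.26 in LA2711 and from -4.92 to 3.08 in ZS-5. The clones under this name thus did not all lie on one side. DES, a divinyl ether synthase that also acts on fatty acid hydroperoxides, differed by 0.49. In the ethylene group, ACS7, which makes the ethylene precursor, differed by 0.06 and the response factor ERF3 by 0.51, while the JERF1 clones differed by -0.56 and -0.38. The S-adenosylmethionine synthetase gene SAM3, which supplies the methyl donor and ethylene precursor, had 5 clones with differences of 0.03 to 0.53. Uncentred they were -0.33 to 0.17, with 1 of 5 positive, against 28.8% of all clones.

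Transport and metal-binding genes also stayed under 2-fold. The inward potassium channel gene LKT1 differed by -0.33 and the tonoplast aquaporin gene TIP by -0.62. TIP lay at 0.62 and 0.18 in LA2711 and at 0.995 and 1.05 in ZS-5. The metallothionein gene MT2 had clones at -0.43, 0.37 and 0.69, the last with -0.86 and -0.85 in LA2711 against -1.52 and -1.56 in ZS-5. MT4 differed by 0.32.

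Of the amino acid genes 3 of 3 had small positive differences, against 53.9% of all clones. Uncentred, 2 of 3 were positive, against 28.8% of all clones. AADC1B, an aromatic amino acid decarboxylase, lay at -3.24 and -3.32 in LA2711, against -3.78 and -4.06 in ZS-5, a difference of 0.64. With equal spread it was 0.10, and after quantile normalisation 0.07, with -0.08 on the Cy5 pair. GAD2, a glutamate decarboxylase that makes the solute gamma-aminobutyric acid, differed by 0.55 and the permease gene AAP2 by 0.28, or -0.08 uncentred. Among the remaining names, the homeobox gene VAHOX1 differed by 0.78 and LOC543942 by 0.79. For LOC543942 the difference was 0.08 with equal spread and 0.28 after quantile normalisation without the dye-following sets. TCTP, a translationally controlled tumour protein homologue, differed by -0.66, and the LOC778302 clones by -0.49 and -0.37. The 12 clones of LOC778326, all on the positive side in both genotypes, differed by -0.77 to 0.18 with a median of -0.21. Over all 77 named clones the median difference was 0.06, against 0.07 over all 3191 clones, and 50 of the 77 were on the same side in both genotypes and nearer to 0 in LA2711, against 1951 of the 3191.

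A group of unnamed clones with like differences was noticed in the plot of both genotypes. The cuts that define it are a negative difference past 2-fold and a ZS-5 mean within 0.5 of 0. These cuts partly fix its 2 hr values. Whether its clones stand for 1 transcript or many is not known, so their number is not one of genes. Of the 101 clones with a negative difference past 2-fold, 56 had a ZS-5 mean within 0.5 of 0, against 4 of the 125 with a positive one. How many of all 3191 clones lie within 0.5 of 0 in ZS-5 was not counted, nor were the differences of such clones at other times. Whether the 56 depart from such clones in general is thus not known. None of the 56 has a gene name, and they lay in 22 of the 32 blocks. At 2 hr they had a median of -1.15 in LA2711 and of 0.08 in ZS-5. The differences ran from -1.40 to -1.03. At 30 min the same clones, 55 of which were measured at all times, had medians of -0.13 in LA2711 and -0.96 in ZS-5, and at 6 hr of -0.32 in LA2711 and -0.94 in ZS-5. Their difference thus had a median of 0.84 at 30 min, -1.19 at 2 hr and 0.64 at 6 hr. They were chosen on the 2 hr values, so only the 30 min and 6 hr values were not used in the choice, and no test was made.

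The genotype difference of 2 hr was seldom that of the other times. Among the 3018 clones measured on all 12 arrays, 110 were past 2-fold between genotypes after 30 min, 214 after 2 hr and 98 after 6 hr. Of those of 2 hr, 13 (6.07%) were also past 2-fold at 30 min, which is 11.8% of the 30 min clones, and 2 of the 13 had the same sign. At 6 hr 30 were shared, which is 14.02% of the 2 hr and 30.6% of the 6 hr clones, and 22 had the same sign. Over all clones measured at each time, the shares past 2-fold were 3.66% for 30 min, 7.08% for 2 hr and 3.2% for 6 hr. Whether one control plant served several times is not stated.

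Named clones followed different courses. The 7 negative-side NAC1 clones had differences of -0.64 to -0.16 at 30 min and of -0.22 to 0.17 at 6 hr, so that each lay below its 2 hr value at both times. The test of the 2 hr difference against the other times gave limma adjusted p-values of 0.223 to 0.364 for them. Hsp90-1 had a difference of 0.62 at 30 min and 0.56 at 6 hr, opposite in sign to that of 2 hr, and its test gave a limma adjusted p of 0.222, a value it shared with other clones and the smallest found. Neither gene passed, so a difference particular to 2 hr is not shown.

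Other clones kept their sign throughout. LOC544267 (spots 5749 to 5751) differed by -0.76, -1.65 and -2.25 at 30 min, 2 hr and 6 hr, GluB (spots 9247 to 9249) by -0.96, -1.11 and -1.57, and LOC543916 by -2.65, -1.40 and -1.12. ADH2 differed by -0.71, -1.36 and -4.29, which gives it the largest 6 hr difference of the named clones. PSY2 had positive differences of 0.87, 1.24 and 0.52. For cat1 they were 1.06, 1.04 and -0.20, so that it was past 2-fold on the mean at 30 min and 2 hr and near 0 at 6 hr. GAD2 and TPX2, small at 2 hr, differed by -2.80 and -2.30 at 30 min, and the MT2 clone of spots 7225 to 7227 by 2.91.

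**Figure D5:**
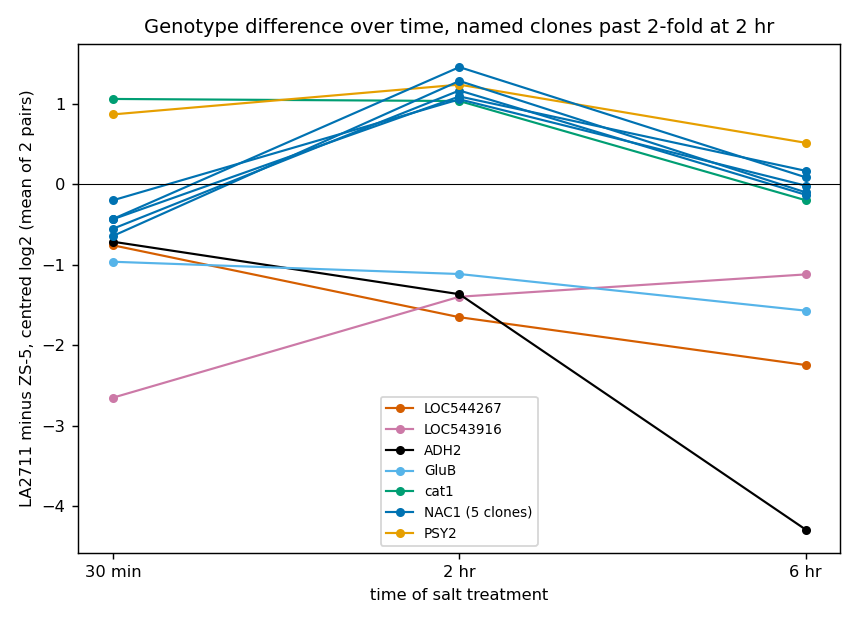
LA2711 minus ZS-5 difference (centred log2, mean of 2 dye-matched pairs) at 30 min, 2 hr and 6 hr, drawn at equal steps, for the 11 named clones past 2-fold at 2 hr. The 5 NAC1 clones stand above 1 at 2 hr only, whereas ADH2, GluB, LOC544267 and LOC543916 are below 0 at all 3 times.

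The largest differences of all belong to clones without a gene name. The clone of spots 5557 to 5559 lay at 1.56 and 1.48 in LA2711 and at -1.24 and -1.27 in ZS-5, a difference of 2.78. That of spots 4795 to 4797 lay at 1.39 and 1.08 in LA2711, against -1.49 and -1.48 in ZS-5, a difference of 2.72. Both clones thus stood past 2-fold on opposite sides in the genotypes, and they are the 2 such clones counted above. Uncentred their LA2711 means were 1.17 and 0.88 and their ZS-5 means -1.25 and -1.48, and the count of such clones was 0. At 6 hr their differences were -3.53 and -3.204, with LA2711 means of -2.07 and -2.19 and ZS-5 means of 1.46 and 1.01, so that each genotype was on the other side. The most negative clones were spots 4699 to 4701, with -3.18 and -3.06 in LA2711 against -1.18 and -1.52 in ZS-5, and spots 7327 to 7329, with -0.02 and 0.16 in LA2711 against 1.78 and 1.66 in ZS-5.

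Place on the array moved with the difference. The median difference of a block was between 0.08 and 0.37 in blocks 1 to 12 and between -0.20 and 0.10 in blocks 13 to 32. The ZS-5 medians were between -0.56 and -0.03 in blocks 1 to 12, and between -0.41 and 0.36 in blocks 13 to 32. With each block centred on its own median, 239 clones were past 2-fold, 124 positive and 115 negative. Of the 11 named clones 7 remained past 2-fold then, and LOC543916, cat1 and 2 NAC1 clones did not. The part of place in these differences was otherwise not tested.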

How the data were processed

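Root RNA of salt-treated and control seedlings was measured on 12 two-colour arrays. The authors deposited 1 log2 ratio per spot and array, and the scanner, background correction and normalisation are not given in any source at hand. From the values, the ratio has 3 decimals where treated RNA was in Cy3 and its inverse does where it was in Cy5, so both orientations were brought to 1 direction before deposit. Runs of 3 adjacent spots were averaged to 1 clone without absolute values of 9.965 or more, and the median of the 3018 clones measured throughout was subtracted on each array. Differences at 2 hr have no replicate check and were counted by size. The test was limma 3.58.1 (R 4.3.3, lmFit and eBayes, 2-sided, Benjamini-Hochberg) on the means of the 6 dye-swap pairs, with time, a difference of its own at 2 hr and 1 difference shared by 30 min and 6 hr, which leaves 1 residual degree of freedom. It takes the 2 hr pair to vary like the other times. Its p-values and SEs rest on how far the genotype difference moved between 30 min and 6 hr. That movement can hold real change over time as well as technical spread, and a clone that changes between these times gets a large SE. Nothing says whether times were separate cultures.

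Role groups hold every named clone. Values are given for named clones past 2-fold, for the 10 largest differences per direction (1 clone per gene) and for the 2 most extreme unnamed clones per direction. The members and lists were chosen with earlier results of these data known. The RefSeq table of assembly SLM_r2.1 held 37 of the 38 gene IDs. Replicate numbers at 2 hr mark the dye orientation, and deviations of same-numbered arrays correlated with r = 0.685 across clones. Alternatives are given in the closing section. The fit was tested on simulated data. Signal over background is unknown, and precision is limited by how few arrays there are.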

Additional observations from a re-analysis of the deposited data

Results flagged for a closer look

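Among the 77 named clones, 8 had both LA2711 arrays on one side of the centre and both ZS-5 arrays on the other, as had 159 of all 3191 clones (4.98%). The limma test of the 2 hr difference called none of them. In 4 of the 8 the sides were also opposite without centring: LOC544267 (spots 5749 to 5751) with a difference of -1.65, LOC543916 with -1.40, TCTP with -0.66 and cat1 with 1.04. In the other 4 at least 1 of the 4 arrays lay on the other side of 0 without centring than with it: MT4 with 0.32, SAM3 (spots 5650 to 5652) with 0.53, GAD2 with 0.55 and VAHOX1 with 0.78. Of all clones, 194 had opposite sides without centring and 85 on both scales.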

How the results depend on the processing

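The count of 226 clones past 2-fold between genotypes was 360 without centring, 147 with arrays matched across dyes and 777 at 1.5-fold, and 311 to 345 when 1 of the 2 replicates was left out. Under the other alternatives it stayed within 1.5 times. The share of shared clones further from 0 in ZS-5 (80.3%) was 64.8% without centring, 47.8% after quantile normalisation (48.0% without the dye-following sets) and 50.3% with equal spread, which force the arrays to like distributions, and 74.5% to 79.2% with 1 replicate left out. The limma count of 0 for the 2 hr difference was 3 without centring, 511 with the 12 arrays as separate samples and 829 with the 4 arrays of 2 hr as separate samples. The replicate block on those 4 arrays, which pairs arrays of like dye, gave 1932. These 3 counts take a dye-swap pair as 2 samples and so measure technical spread. With 1 array left out the count was 0 to 10, the 10 without LA2711 at 30 min replicate 2. For the 2 hr difference minus that of the other times, the count of 0 was 88 without centring and 551 with 12 separate arrays, and 0 to 4 with 1 array left out, the 4 without the same array. The cause was not tested. Of the 24 named clones none changed sign under the 12 alternatives run on them. Of the 11 past 2-fold, 4 were so without centring, 3 after quantile normalisation (also without the dye-following sets) and 3 with equal spread (LOC544267, LOC543916 and cat1), and 7 with centring by block. Centring by block and leaving out the dye-following sets, also before quantile normalisation, were chosen after seeing the data.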

Other observations

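The 3 unnamed clones that limma called at 2 hr without centring, spots 3934 to 3936, 4795 to 4797 and 5557 to 5559, had uncentred LA2711 minus ZS-5 differences of 2.31, 2.36 and 2.42. Of the clones past 2-fold between genotypes at 2 hr, 11 were past 2-fold with the opposite sign at 30 min, 3 of them positive and 8 negative at 2 hr. At 6 hr 8 were past 2-fold with the opposite sign, 7 positive and 1 negative at 2 hr. None of these carries a gene name.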
